A study of Mus musculus with 24 samples.

Results

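A set of 10 genes that mark the Krt8-positive intermediate state of the alveolar epithelium were followed in mice whose let-7a/f/d cluster was conditionally deleted in alveolar type 2 (AT2) cells. The 10 genes are Krt8, Krt18, Krt7, Krt19, Cldn4, Sfn, Plaur, Sox4, Epha2 and Nupr1. They were chosen by gene symbol, without a threshold but with earlier results of these data known. Shares of them set beside those of all genes are thus a description. Each of the 10 was found once among 24970 symbols in every one of 4 expression tables. All 10 passed the filter on low values (described with the methods) in all 4 tables. The tables hold poly(A) RNA-seq of 24 libraries in TPM (a level per transcript length that is scaled to the same total in every library). Controls had the genotype Sftpc-CreER/+; R26-tdT/+, and knockouts were let7afd-/- in addition, so the Cre driver, the tdTomato reporter and tamoxifen were common to both genotypes. Sorted AT2 cells were taken after 6 days of tamoxifen, with 3 libraries per genotype and 3 pooled mice per library. Lungs were taken whole, after 6 days from 3 mice of each genotype or after booster tamoxifen over 6 months from 4 mice of each. Organoids of AT2 cells grew in AMM medium for 14 days, from 2 mice of each genotype given tamoxifen for 6 days. Sftpc-CreER acts in Sftpc-expressing cells, so in whole lung the deletion is expected in a fraction of the cells and the values are averages over all of them. The sources used here give no ages or sexes, nor the gates of the sort.

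The intermediate state is one that AT2 cells pass through when they regenerate the flat alveolar type 1 (AT1) cells after injury, and cells held in it are known from fibrotic lungs. Its hallmark is a raised amount of simple keratins, the intermediate filament proteins of single-layered epithelia, which assemble in pairs of a type II keratin (Krt8 or Krt7) and a type I keratin (Krt18 or Krt19). Around them are genes of cell contacts, cell cycle arrest, cell surface proteolysis and stress. let-7 microRNAs lower the level of transcripts that pair with their seed, usually through a site in the 3′ UTR.

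The mature let-7a, let-7f and let-7d microRNAs named by the genotype share one seed, and they are shown because the search for sites in the 10 genes rests on it. The genes of the let-7a/f/d cluster lie together on the minus strand of chromosome 13 (RefSeq, GRCm38.p6), and the capitals mark bases 2 to 8. Mature microRNAs have no poly(A) tail and were not measured, so the genotype is taken from the labels.
let-7a, chr13:48538239-48538260: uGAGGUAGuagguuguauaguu
let-7f, chr13:48537889-48537910: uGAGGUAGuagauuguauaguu
let-7d, chr13:48536078-48536099: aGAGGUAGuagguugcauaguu

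Matches to this seed (CTACCTCA, or its first or last 7 bases) were searched in the 3′ UTRs of the 10 genes. Plaur and Nupr1 had 1 each in at least 1 annotated coding transcript (GENCODE M21, GRCm38), and the other 8 genes had none. When only the longest 3′ UTR of each gene was read, 1 of the 10 genes held a match, against 16.5% of 20821 genes with a 3′ UTR of at least 50 bases, a share near that of all genes. The keratin 3′ UTRs are short apart from that of Krt7 (2648 bases), with 66 bases in Krt18, 103 in Krt19 and 242 in Krt8. In Plaur the match lies at base 459 of the 496-base 3′ UTR of transcript ENSMUST00000002284.10, and 2 other coding transcripts of the gene lack it. In Nupr1 it lies in the 3′ UTRs of 2 other coding transcripts (414 and 480 bases), and not in that of ENSMUST00000032961.3. The 30 bases around each match are given 5′ to 3′ on the strand of the gene, with the seed match in capitals.
Plaur, chr7:24475919-24475948, plus strand: cccacctgcctCTACCTCctcagtgctttg
Nupr1, chr7:126625034-126625063, minus strand: acacacctcctCTACCTCctgctccaccag
A match is a description of the sequence, and the gene-level TPM do not separate the transcripts that have it from those that do not.

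Krt8 (chr15:101996698-102004482, minus strand) and Krt18 (chr15:102028180-102032027, plus strand) are neighbours, 23697 bases apart, and Krt7 lies 566384 bases from Krt8 on the same chromosome (chr15:101411043-101430313, plus strand). Krt19 lies in the type I keratin cluster of chromosome 11 (chr11:100140810-100148665, minus strand). The other genes are at chr5:134945119-134946934 (Cldn4, minus), chr4:133600556-133602168 (Sfn, minus), chr7:24462484-24475968 (Plaur, plus), chr13:28948919-28953713 (Sox4, minus), chr4:141301240-141329384 (Epha2, plus) and chr7:126623249-126630861 (Nupr1, minus). Exons of Krt8, Krt7 and Sox4 overlap exons of annotated genes on the opposite strand (Gm36026, Gm671 and Gm26735), and the libraries do not keep the strand. Krt8 also has an annotated pseudogene, Krt8-ps, and no source used here says how shared reads were assigned, so its level is uncertain to that extent.

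In controls, most of the 10 genes were highest in organoids, and the keratins differed in their order between kinds of sample. The tables were made separately, so these levels are set side by side without a test. Krt8 was at 866.7 ± 37.7 TPM (SD, n = 2) in control organoids, 545 ± 113 TPM (n = 3) in control AT2 cells, 192 ± 11.5 TPM (n = 4) in lungs at 6 months and 167 ± 21.5 TPM (n = 3) in lungs at 6 days. The organoid and AT2 values did not overlap each other or the lungs, and the lung groups overlapped. Krt18 followed the same order, and its lung groups did not overlap. Krt7 and Krt19 were lowest in AT2 cells (137 ± 20.5 and 111 ± 8.29 TPM) and were higher in lungs without overlap. Krt19 was 0.258 to 0.306 of Krt18 in control AT2 cells, 2.16 to 2.19 of it in control lungs at 6 days and 0.958 and 1.46 of it in control organoids.

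Cldn4 differed most between culture and tissue, with 108 and 130.4 TPM in the control organoids and 3.22 to 7.36 TPM in all 10 control libraries of AT2 cells and lungs. Plaur had the opposite place in the order for AT2 cells. It was lowest there (4.97 ± 0.557 TPM), at 34.2 ± 2.67 TPM in organoids, and highest in lungs at 6 days (65.5 ± 16.5 TPM) and 6 months (54.9 ± 5.09 TPM), which overlapped. Epha2 did not differ between control AT2 cells (131 ± 24.5 TPM) and organoids (130.5 ± 22.1 TPM) beyond their spread, and was lower in lungs. Sfn was at 73.7 ± 19.7 TPM in AT2 cells, 245 ± 124 TPM in organoids and at most 32.0 TPM in control lungs.

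**Figure D1:**
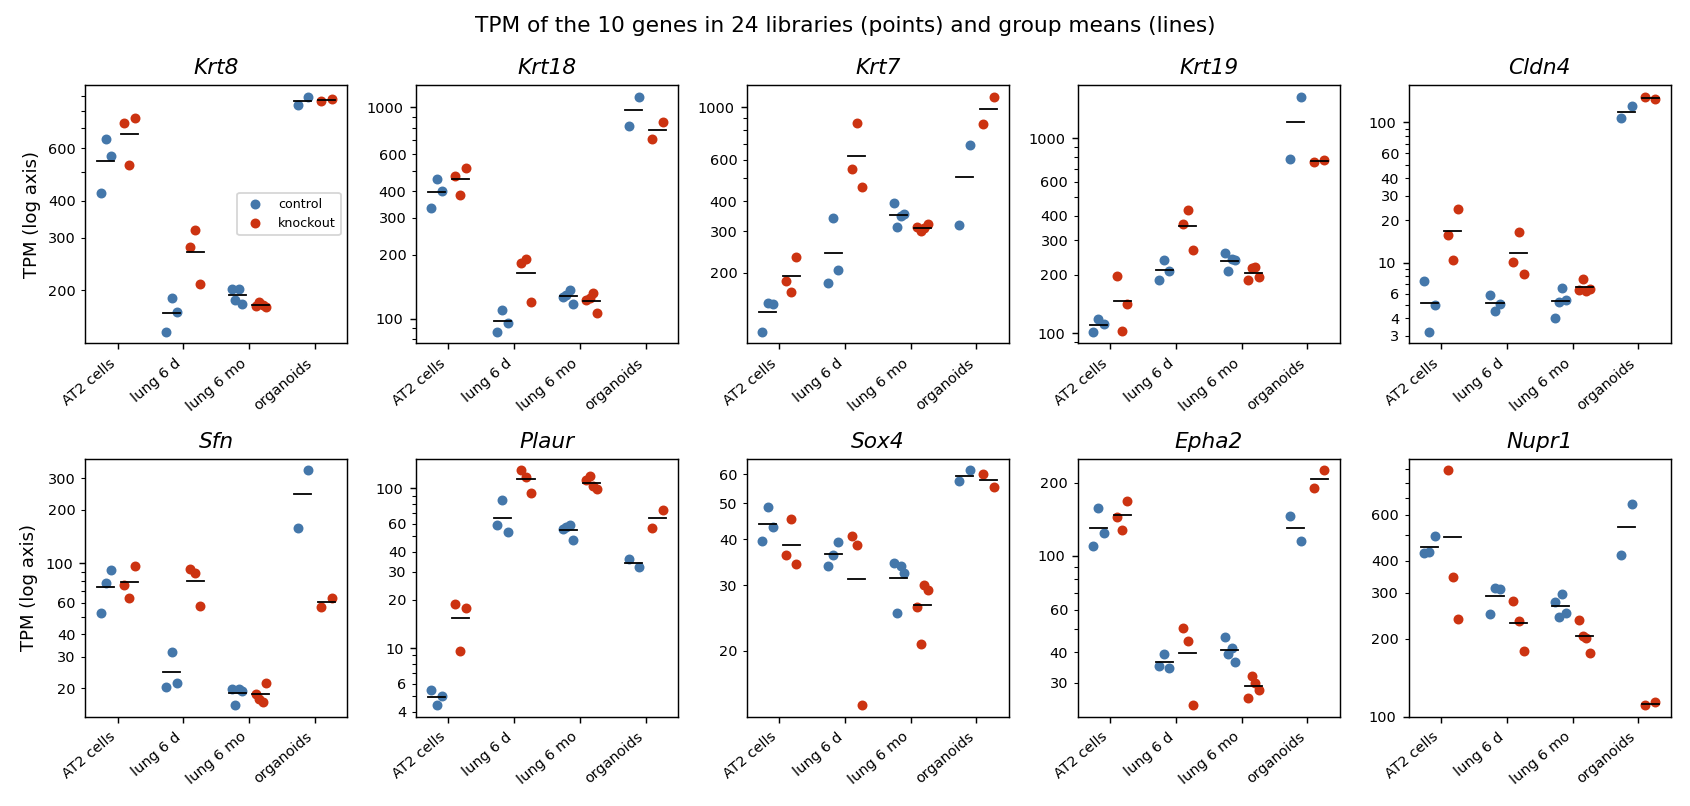
TPM (log axis, scaled separately for each gene) of the 10 genes in the 24 libraries, by kind of sample, with controls in blue, let-7 knockouts in red and black lines at group means. Plaur is higher in every knockout library than in any control library of the same kind, while Sfn is higher in knockout lungs at 6 days (57.6 to 92.9 TPM against 20.4 to 32.0 TPM) and lower in knockout organoids (57.1 and 64.1 TPM against 157 and 332 TPM).

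Knockout was compared with control within each table, which asks what this deletion in AT2 cells does to these genes at once, after months and in culture. Differences are given on the log2(TPM + 1) scale as knockout minus control with the SE of the limma fit, and a gene passed at a Benjamini-Hochberg adjusted p under 0.05 over all genes tested in that table. This scale understates differences of genes with low TPM. Sequencing depth is unknown, since TPM keep no read numbers.

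In AT2 cells, Cldn4 and Plaur rose and none of the 10 genes fell. Of the 10 genes, 2 rose, 0 fell and 8 did not pass by limma, where 6.62% of 12109 genes rose and 1.22% fell. At an unadjusted p under 0.05 the counts were 3 higher and 0 lower. The share of all genes at that unadjusted threshold was not computed, here or below. Such counts are thus a description and cannot be set against the shares of genes that passed. The median difference of the 10 genes was 0.26, beside 0.08 for all genes tested. Krt7 and Sfn rose in lungs at 6 days. There 2 of the 10 genes rose, 0 fell and 8 did not pass by limma, where 3.16% of 14154 genes rose and 3.79% fell, and 7 were higher and 0 lower at an unadjusted p under 0.05. The median of the 10 genes was 0.73 and that of all genes −0.14.

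After 6 months, Plaur rose in lungs and Epha2 and Nupr1 fell. These were 1 gene that rose and 2 that fell, where 15.9% of 14177 genes rose and 13.9% fell, so the share of the 10 genes that passed was near that of all genes. Their median was −0.14, and that of all genes 0.00 (−0.0048). Of the 10 genes, 2 were higher and 4 lower there at an unadjusted p under 0.05. In organoids, 0 of the 10 genes passed by limma, where 0.218% of 12406 genes rose and 0.387% fell. At an unadjusted p under 0.05 there, Plaur and Epha2 were higher (2 genes) and Sfn and Nupr1 lower (2 genes). Only 75 genes of any kind passed in organoids.

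Counted by overlap alone, 3 of the 10 genes were higher in every AT2 knockout than in any control (25.4% of all genes tested), and 0 were lower (8.31%). Lungs at 6 days had 7 genes that were higher without overlap (12.5% of all genes) and 0 lower (23.7%). At 6 months 1 was higher (16.4%) and 2 were lower (14.2%), and in organoids 4 were higher (39.6%) and 3 lower (32%). The shares in AT2 cells, lungs at 6 months and organoids were near those of all genes, and that in lungs at 6 days was above. The set was chosen with earlier results of these data known, so that share is a description.

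The count in lungs at 6 days depended on scaling and on single libraries. The median over all genes moved from −0.14 to −0.0029 with median-ratio scaling, and 7 of the 10 genes then rose: Krt8, Krt18, Krt19, Cldn4 and Plaur in addition to Krt7 and Sfn. Quantile normalization gave 7 as well, and so did leaving out knockout 3. Over all genes, median-ratio scaling changed the split of calls from 447 higher and 536 lower to 928 and 857 there, and from 802 and 148 to 430 and 218 in AT2 cells. Knockout 3 held 8.45% of its TPM in the haemoglobin genes Hba-a1, Hba-a2, Hbb-bs and Hbb-bt, against 0.876% to 4.52% in the other 5 libraries. Without control 1 or without control 3 of lungs at 6 days, 0 of the 10 genes passed, and without knockout 2 only 1 did (Sfn).

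Among the keratins, Krt8 itself did not pass in any table. In lungs at 6 days, Krt8 was at 145, 188 and 169 TPM in controls and 279, 319 and 209.6 TPM in knockouts. The genotypes did not overlap. The lowest knockout was the haemoglobin-rich knockout 3, while knockout 2, with 4.52% of its TPM in haemoglobin genes, was the highest. The part of haemoglobin in these Krt8 values was not tested. The difference was 0.67 ± 0.18 (limma adjusted p 0.0688), and 0.82 (adjusted p 0.0145) with median-ratio scaling. In AT2 cells, control libraries had 423, 645 and 566 TPM of Krt8 and knockouts 728, 526 and 756 TPM. These overlapped, and the difference of 0.30 ± 0.19 had an adjusted p of 0.348. At 6 months, 179 to 202 TPM in controls stood beside 175 to 182 TPM in knockouts (−0.11 ± 0.05, adjusted p 0.150). Organoid values were 840.1 and 893 TPM in controls and 865 and 876 TPM in knockouts, so the knockouts lay between the controls (0.01 ± 0.11, adjusted p 0.970).

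Krt18, the type I partner of Krt8, followed it closely in AT2 cells and lungs. Its lung values at 6 days ran from 86.7 to 109.6 TPM in controls and from 120.2 to 191 TPM in knockouts, with no overlap (0.73 ± 0.20, adjusted p 0.0680). It overlapped between genotypes in the other 3 kinds of sample. The ratio of Krt8 to Krt18 overlapped between genotypes in AT2 cells and lungs. It was 1.27 to 1.41 in control and 1.36 to 1.54 in knockout AT2 cells, 1.67 to 1.77 and 1.53 to 1.74 in lungs at 6 days, and 1.44 to 1.60 and 1.35 to 1.65 in lungs at 6 months. Control organoids had 0.795 and 1.027, and knockout organoids 1.030 and 1.23, so these did not overlap, with 2 libraries per genotype. There the Krt18 difference was −0.31 ± 0.21 (limma adjusted p 0.333), and that of Krt8 was 0.01 ± 0.11.

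Krt7, a type II keratin of ducts, airways and mesothelium, rose most among the keratins in lungs at 6 days. Its controls had 182, 339.6 and 205 TPM and its knockouts 547, 853 and 462 TPM. The lowest knockout stood above the highest control, and the difference was 1.36 ± 0.29 (limma adjusted p 0.0314). That call was lost when no filter was used (adjusted p 0.0543), and when control 1 (0.148), control 3 (0.145) or knockout 2 (0.0915) was left out. In AT2 cells, Krt7 was at 113, 149 and 148 TPM in controls and 185, 166 and 233 TPM in knockouts. Those groups did not overlap either, but the difference did not pass (0.50 ± 0.15, adjusted p 0.0818). Organoid knockouts (847 and 1106 TPM) stood above controls (319 and 694 TPM), with a difference of 1.04 ± 0.41 (adjusted p 0.151). Lungs at 6 months gave 313 to 393 TPM in controls and 300.5 to 320.3 TPM in knockouts (−0.18 ± 0.06, adjusted p 0.0621).

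Krt19, the small type I keratin that lacks a tail, was at 188, 237 and 209 TPM in control lungs and 363, 431 and 267 TPM in knockout lungs at 6 days. These did not overlap (0.72 ± 0.19, adjusted p 0.0627). In AT2 cells 1 knockout library, at 103 TPM, lay within the controls (102 to 118 TPM), and the others were at 196 and 142 TPM. Organoids gave 784 and 1636 TPM in controls and 757 and 771 TPM in knockouts, a wide spread in controls beside a narrow one in knockouts (−0.57 ± 0.38, adjusted p 0.321). At 6 months its difference was −0.21 ± 0.07 (adjusted p 0.0540). With quantile normalization Krt8 (−0.22), Krt7 (−0.33) and Krt19 (−0.35) passed as lower at 6 months.

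Mesothelial cells also carry these 4 keratins at high levels, so mesothelial markers were read beside them. The summed TPM of 6 mesothelial markers was 214 to 244 in control lungs and 279 to 315 in knockout lungs at 6 days, and 282 to 358 in controls and 179 to 213 in knockouts at 6 months. At 6 days 1 of the 6 markers rose, Msln (62.5 ± 0.759 to 161 ± 19.1 TPM, n = 3), and 1 fell, Gpm6a. Only 2 of the 6 differences were positive at 6 days, with a median of −0.20, so the sum does not stand for all 6 markers. At 6 months all 6 fell. None of the 6 was at 0 throughout either lung table. Of 9 genes shared by lung epithelia (Epcam, Cdh1 and others), 0 passed by limma at 6 days (0 higher and 2 lower at an unadjusted p under 0.05), and their sum was 680 to 717 TPM in controls and 457 to 616 TPM in knockouts. Of 7 club cell markers, 6 fell at 6 days. In bulk tissue, fewer cells of a type and less RNA per cell cannot be told apart, and the part of these cell types in the keratin values was not tested.

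Other keratins were read beside the simple keratins, and the difference between the lists was not tested. Of 10 further keratins, most of them basal or squamous, 3 were tested in lungs at 6 days, where Krt15 (−1.45 ± 0.26) and Krt23 (−1.17 ± 0.20) fell and 0 rose by limma. In organoids 9 were tested, and 4 fell: Krt14 (−4.71 ± 0.18), Krt17 (−4.45 ± 0.27), Krt5 (−4.17 ± 0.38) and Krt15 (−3.82 ± 0.24). Their sum was 1101 and 2302 TPM in control organoids and 146 and 157 TPM in knockout organoids. Of the others there, Krt80 (1.43 ± 0.14, adjusted p 0.0505) and Krt23 (0.65 ± 0.19, adjusted p 0.1005) had positive differences. At 6 months 2 were tested, and Krt80 fell (−0.73 ± 0.08, adjusted p 6.58e-05). In AT2 cells 0 of 7 passed by limma, with 2 higher and 1 lower at an unadjusted p under 0.05, and 5 of the 7 differences were positive (median 0.75).

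Cldn4, a claudin of tight junctions, rose in knockout AT2 cells from a low level. Controls had 7.36, 3.22 and 4.97 TPM and knockouts 15.7, 10.4 and 24.2 TPM. The groups did not overlap and the means differed 3.23-fold (5.19 ± 2.08 and 16.8 ± 6.92 TPM, SD, n = 3). The difference was 1.5 ± 0.32 (limma adjusted p 0.0328). That call was among the least stable. It ended without the filter (adjusted p 0.0775), with median-ratio scaling (0.0501) or quantile normalization (0.0536), and without control 2 (0.119), control 3 (0.0907), knockout 1 (0.0679) or knockout 3 (0.0921). In lungs at 6 days, 5.83, 4.53 and 5.10 TPM in controls stood below 10.2, 16.6 and 8.34 TPM in knockouts (1 ± 0.25, adjusted p 0.0552), again with no overlap. At 6 months the genotypes overlapped (4.05 to 6.54 and 6.30 to 7.64 TPM), and in organoids 152 and 147 TPM in knockouts lay just above 108 and 130.4 TPM in controls (0.33 ± 0.13, adjusted p 0.153).

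Sfn encodes 14-3-3 sigma, an epithelial adaptor protein induced by p53 that holds the cell cycle at G2. It rose in lungs at 6 days, from 20.4, 32.0 and 21.3 TPM to 92.9, 88.1 and 57.6 TPM. All knockouts were above all controls, by 3.24-fold in the means, and the difference was 1.66 ± 0.24 (limma adjusted p 0.0104). It no longer passed without control 1 (0.0676) or control 3 (0.0579). AT2 cells sorted at the same time overlapped, with 52.4, 77.2 and 91.4 TPM in controls and 75.7, 63.9 and 97.3 TPM in knockouts (0.11 ± 0.22, adjusted p 0.772). Lungs at 6 months were alike within their spread (16.0 to 19.7 and 16.7 to 21.2 TPM, adjusted p 0.931). In organoids the direction was the other way, with 157 and 332 TPM in controls and 57.1 and 64.1 TPM in knockouts (−1.9 ± 0.38, adjusted p 0.0706).

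The basal cell markers Trp63, Krt5, Krt14, Krt15, Ngfr and Ly6d stood apart in the same organoids. They summed to 1337 and 2451 TPM in control organoids and to 91.8 and 94.0 TPM in knockout organoids, and 4 of the 6 fell. Basal and squamous cells also express Sfn and Krt19, and the part of these cells in the organoid values was not tested.

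Plaur, the urokinase receptor that localizes plasmin activation at the cell surface, was higher in knockouts in all 4 kinds of sample without overlap. This held for 1.39% of the 11126 genes tested in all 4 tables and for no other of the 10 genes. In AT2 cells, controls had 5.49, 4.39 and 5.04 TPM and knockouts 19.0, 9.58 and 17.7 TPM, a 3.10-fold difference in means (1.41 ± 0.23, limma adjusted p 0.0151). Leaving out control 2 (adjusted p 0.0767), control 3 (0.0520) or knockout 3 (0.0585) ended the call. Lungs at 6 days followed: 58.6, 84.3 and 53.6 TPM stood beside 129, 118 and 93.8 TPM (0.80 ± 0.21, adjusted p 0.0571).

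At 6 months the controls had 55.4, 57.5, 59.1 and 47.6 TPM of Plaur and the knockouts 112, 119.9, 103 and 98.7 TPM. Every knockout lung was well above every control lung, and the difference of 0.97 ± 0.08 (limma adjusted p 6.08e-06) passed under all 16 alternatives run. In organoids, 36.1 and 32.3 TPM in controls compared with 56.5 and 73.3 TPM in knockouts (0.90 ± 0.17, adjusted p 0.0701). The differences on this scale thus ran from 0.80 to 1.41 in the 4 kinds of sample.

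Macrophages and neutrophils also express Plaur. The sum of 8 alveolar macrophage markers was 34.4 to 65.9 TPM in control and 141 to 262 TPM in knockout AT2 cells. In lungs it was 1493 to 1718 and 3554 to 12856 TPM at 6 days, and 737 to 986 and 3776 to 7500 TPM at 6 months. Of these markers 2 of 6 tested rose in AT2 cells. In lungs 3 of 8 rose and 1 fell at 6 days, and 5 of 8 rose and 1 fell at 6 months. At 6 days only 4 of the 8 differences were positive, and their median was 0.06. Marco (4.69 ± 0.61), Chil3 (2.80 ± 0.45) and Plet1 (0.92 ± 0.16) rose there, and Siglecf (−0.98 ± 0.24) fell. The sum at 6 days thus does not stand for all 8 markers. The sum of 8 monocyte and interstitial macrophage markers was 67.0 to 89.6 TPM in control and 89.9 to 106 TPM in knockout AT2 cells. In lungs it went from 516 to 727 TPM in controls to 892 to 1500 TPM in knockouts at 6 days (2 of 8 rose), and from 359 to 543 TPM to 1003 to 1143 TPM at 6 months (5 of 8 rose). Among them C1qa, which tissue macrophages express, rose at 6 months (102 ± 27.8 to 269 ± 12.2 TPM, n = 4, limma adjusted p 2.19e-05), and had 152 ± 42.4 and 292 ± 89.6 TPM at 6 days (adjusted p 0.0671). Of the neutrophil markers 0 passed by limma in AT2 cells (3 tested, 1 higher at an unadjusted p under 0.05) or in lungs (5 tested at each time, 0 at an unadjusted p under 0.05). In organoids the alveolar macrophage sum was 7.08 and 9.74 TPM in controls and 7.50 and 10.3 TPM in knockouts, and 6 of the 8 markers averaged under 1 TPM. Marco, a macrophage scavenger receptor, was at 0.139 ± 0.0502 TPM in control and 3.42 ± 1.47 TPM in knockout organoids (n = 2, adjusted p 0.0649). The monocyte and interstitial macrophage sum was 8.84 and 19.6 TPM in control and 18.4 and 19.6 TPM in knockout organoids, where C1qa was at 0 in both controls and at 0.0352 TPM on average in knockouts. The part of macrophages in the AT2 and lung values was not tested.

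Epha2, a receptor tyrosine kinase for ephrin-A ligands, fell in lungs at 6 months. Its controls had 46.3, 39.2, 41.7 and 36.6 TPM and its knockouts 25.9 to 32.0 TPM. No knockout reached the lowest control (−0.48 ± 0.09, limma adjusted p 0.0016), and the call held under all 16 alternatives run. Organoids differed in the other direction, with 146 and 115 TPM in controls and 190.1 and 225 TPM in knockouts (0.67 ± 0.17, adjusted p 0.0825). It overlapped between genotypes in AT2 cells (adjusted p 0.479). At 6 days in lung it also overlapped, and knockout 3 was the lowest library at 24.2 TPM (0.06 ± 0.26, adjusted p 0.907).

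At 6 months markers of several other lung cell types were lower too. All 7 endothelial markers, all 7 ciliated cell markers and 6 of 7 club cell markers fell, while 7 of 11 AT2 markers rose and 0 fell. Of 11 AT1 markers, 5 fell and 1 rose, and of the 9 genes shared by lung epithelia 3 fell and 0 rose. The part of these cell types in the Epha2 and Nupr1 values was not tested.

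Nupr1, a small stress-induced chromatin protein, fell in the same lungs. Controls had 277, 242, 296 and 251 TPM and knockouts 236, 205, 201 and 177 TPM. The groups were close and did not overlap (−0.38 ± 0.09, limma adjusted p 0.00727), and the call held under all 16 alternatives run. In organoids Nupr1 was at 419.9 and 662 TPM in controls and at 110.5 and 114 TPM in knockouts. That is the largest difference of the 10 genes in any table (−2.22 ± 0.24), yet it did not pass (adjusted p 0.0528). In AT2 cells, controls had 427, 433 and 497 TPM and knockouts 891, 344 and 239 TPM. Knockout 1 was above every control there and the other knockouts were below every control. The mean of the knockouts (491 TPM) was therefore above that of the controls (452 TPM), while the log2 difference was negative (−0.11 ± 0.41, adjusted p 0.890). Knockout 1 also held 14.3% of its TPM in ribosomal protein genes, against 7.84% to 9.14% in the other AT2 libraries.

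Sox4, a transcription factor of progenitor and TGF-beta-responsive cells, overlapped between genotypes in all 4 kinds of sample. Its lowest adjusted p was 0.187, at 6 months (−0.24 ± 0.13). Knockout 3 of the lungs at 6 days had 14.2 TPM, while the other 5 libraries had 33.9 to 40.8 TPM.

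**Figure D2:**
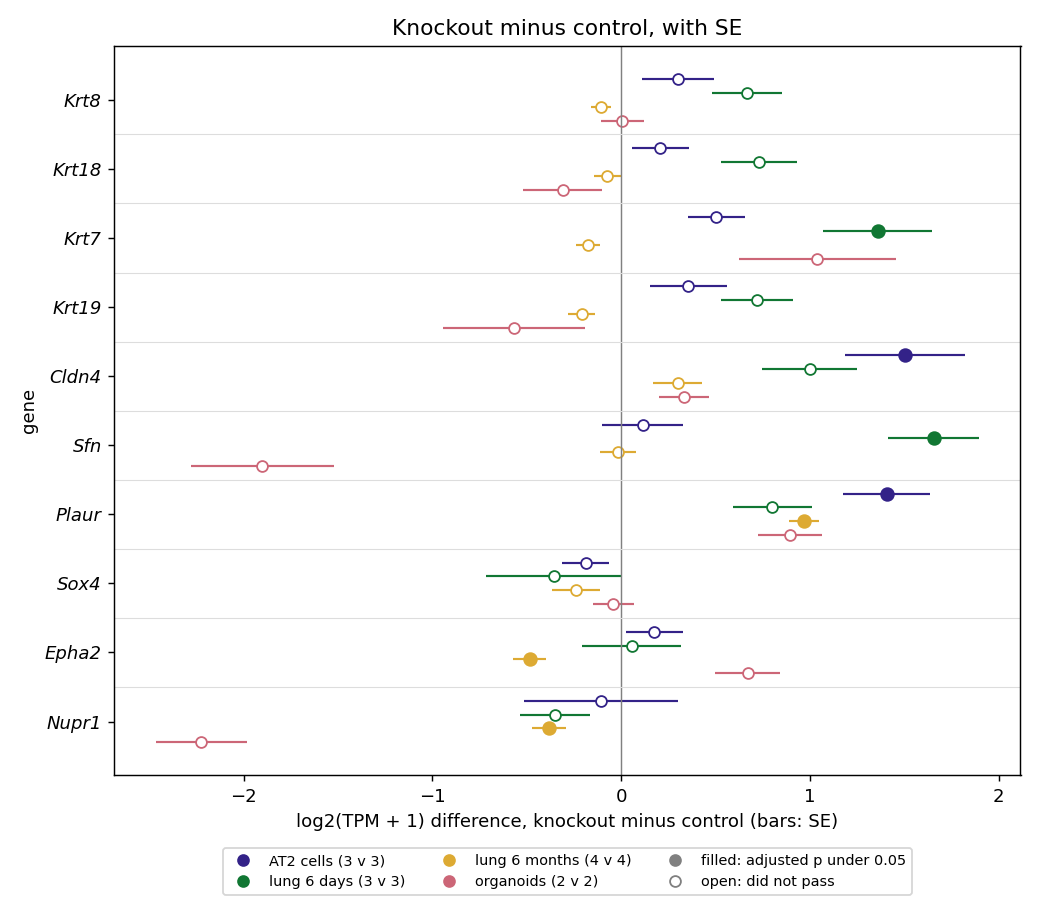
Differences between knockout and control for the 10 genes in the 4 kinds of sample, on the log2(TPM + 1) scale (x axis), with SE as bars, filled where the limma adjusted p was under 0.05. Plaur lies between 0.80 and 1.41 in all 4, while Sfn runs from 1.66 in lungs at 6 days to −1.9 in organoids.

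Whether the knockout effect itself differed between kinds of sample was tested as the difference of 2 within-table effects, with the spread of each table kept separate. From 6 days to 6 months in lung, the effects on Sfn (−1.67 ± 0.26, adjusted p 0.00679), Krt7 (−1.53 ± 0.30, adjusted p 0.0305) and Krt19 (−0.93 ± 0.21, adjusted p 0.0397) were lower by the limma effects. These 3 of 10 genes compare with 0.353% of 13875 genes that passed as lower. None (0) of the 10 passed as higher, as 2.38% of all genes did, and 0 were higher at an unadjusted p under 0.05. The Krt8 and Krt18 differences (−0.78 ± 0.19 and −0.80 ± 0.21) did not pass (adjusted p 0.0733 and 0.0878). The difference for Plaur was 0.17 with a 95% interval from −0.32 to 0.66. All 3 calls ended without control 1 of 6 days, where 0 members passed (adjusted p 0.0612 for Sfn, 0.153 for Krt7 and 0.225 for Krt19). The Krt7 and Krt19 calls also ended without the filter (0.0555 and 0.0600), control 3 (0.142 and 0.188) or knockout 2 (0.106 and 0.149), and the Sfn call without knockout 2 (0.0556). Krt19 lost its call in 9 of 23 alternatives, also without a variance trend (0.0632), control 2 (0.0851) or knockout 1 of 6 days (0.0693), and control 1 (0.0525) or knockout 1 of 6 months (0.0534).

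Between organoids and AT2 cells, the effects on Nupr1 (−2.11 ± 0.47, adjusted p 0.0216) and Sfn (−2.01 ± 0.44, adjusted p 0.0354) were lower in organoids, where 6.08% of 11351 genes passed as lower and 3.22% as higher. Both calls ended without either knockout organoid, when the lone one left was assumed to vary as the other libraries did (adjusted p 0.183 and 0.187 for Nupr1, and 0.333 and 0.330 for Sfn). They also ended without 1 AT2 control each, control 2 for Nupr1 (0.0521) and control 1 for Sfn (0.0519). With a shared spread the Nupr1 value was 0.0501, and without the filter the Sfn value was 0.0543. Between lungs at 6 days and AT2 cells, the effect on Sfn was higher in lung by 1.54 ± 0.32 (adjusted p 0.0348), where 0.357% of 11766 genes passed as higher and 0.705% as lower. That call ended in 7 of 21 alternatives. These were a shared spread (adjusted p 0.0628), the AT2 libraries control 2 (0.0857), control 3 (0.0700) and knockout 2 (0.0667) left out, and the lung libraries control 1 (0.185), control 3 (0.164) and knockout 2 (0.113) left out. Sfn was the 1 gene of the 10 called there. The AT2 cells and lungs came from separate libraries and controls.

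**Figure D3:**
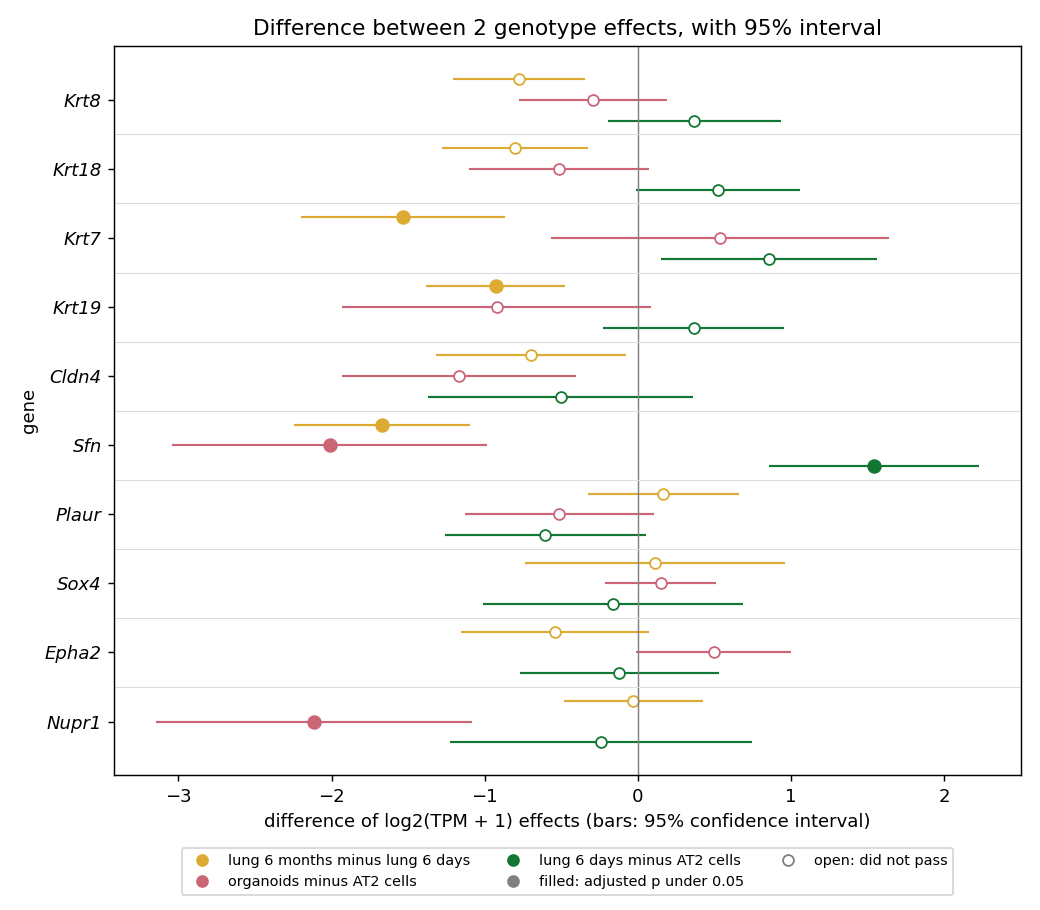
Differences between 2 knockout effects for the 10 genes (x axis, log2(TPM + 1) scale), with 95% confidence intervals as bars, filled where the adjusted p was under 0.05. Sfn passes in all 3 contrasts (−1.67, −2.01 and 1.54), and the interval of Plaur spans 0 in each.

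Other genes known from the intermediate state were read from a list of 38 symbols, 37 of which were in the tables (Ctgf was listed under its older symbol). In AT2 cells 6 of 34 tested rose, 0 fell and 28 did not pass, beside 6.62% and 1.22% of all genes, with a median of 0.28 (0.08 over all genes). Among those that rose were the membrane linker moesin, Msn (153 ± 4.26 to 216 ± 30.2 TPM, n = 3), the growth factor Ctgf (7.79 ± 0.511 to 13.9 ± 3.84 TPM) and fibronectin, Fn1 (4.12 ± 2.23 to 10.1 ± 1.86 TPM), with adjusted p values of 0.0370 to 0.0419 (limma). Of 7 fibroblast markers 4 were tested in AT2 cells, and 0 passed by limma. All 4 differences were positive (median 0.81), 2 of them at an unadjusted p under 0.05. The part of other cell types in these AT2 values was not tested. Of 36 tested, 10 rose in lungs at 6 days, 0 fell and 26 did not pass, beside 3.16% and 3.79% of all genes, with a median of 0.48 (−0.14 over all genes). The stress cytokine Gdf15 (1.97 ± 1.18 to 22.3 ± 4.46 TPM), galectin-3, Lgals3 (222 ± 76.5 to 711 ± 120 TPM), the TWEAK receptor Tnfrsf12a (43.8 ± 15.4 to 116 ± 9.38 TPM) and the calcium-binding S100a6 (510.1 ± 159 to 1253 ± 179 TPM) led there.

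At 6 months 13 of 35 tested rose in lungs, 4 fell and 18 did not pass, beside 15.9% and 13.9% of all genes, with a median of 0.15 (−0.0048 over all genes). Lgals3 (163 ± 10.9 to 1302 ± 136 TPM, n = 4), Gdf15 (1.49 ± 0.377 to 28.3 ± 1.76 TPM), the hyaluronan receptor Cd44 (62.2 ± 3.92 to 137 ± 16.1 TPM) and the heparin-binding growth factor Mdk (13.8 ± 3.14 to 44.7 ± 6.92 TPM) rose. Macrophages also express Lgals3 and Cd44, and the macrophage marker sums given with Plaur apply here too. Tnfrsf12a, which rose at 6 days, fell at 6 months (47.0 ± 10.3 to 33.2 ± 2.52 TPM). In organoids 0 rose, 1 fell and 34 did not pass by limma (12 higher and 8 lower at an unadjusted p under 0.05), beside 0.218% and 0.387% of all genes, with a median of 0.30 (0.06 over all genes). The gene that fell was AW112010 (25.3 ± 0.769 to 6.16 ± 0.64 TPM, n = 2). The annexin Anxa1 rose in 3 of the 4 tables, and Areg, Fn1, Gdf15 and Lgals3 were among the genes of the list that rose in 2. The list holds genes chosen with earlier results of these data known, so its direction is a description.

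**Figure D4:**
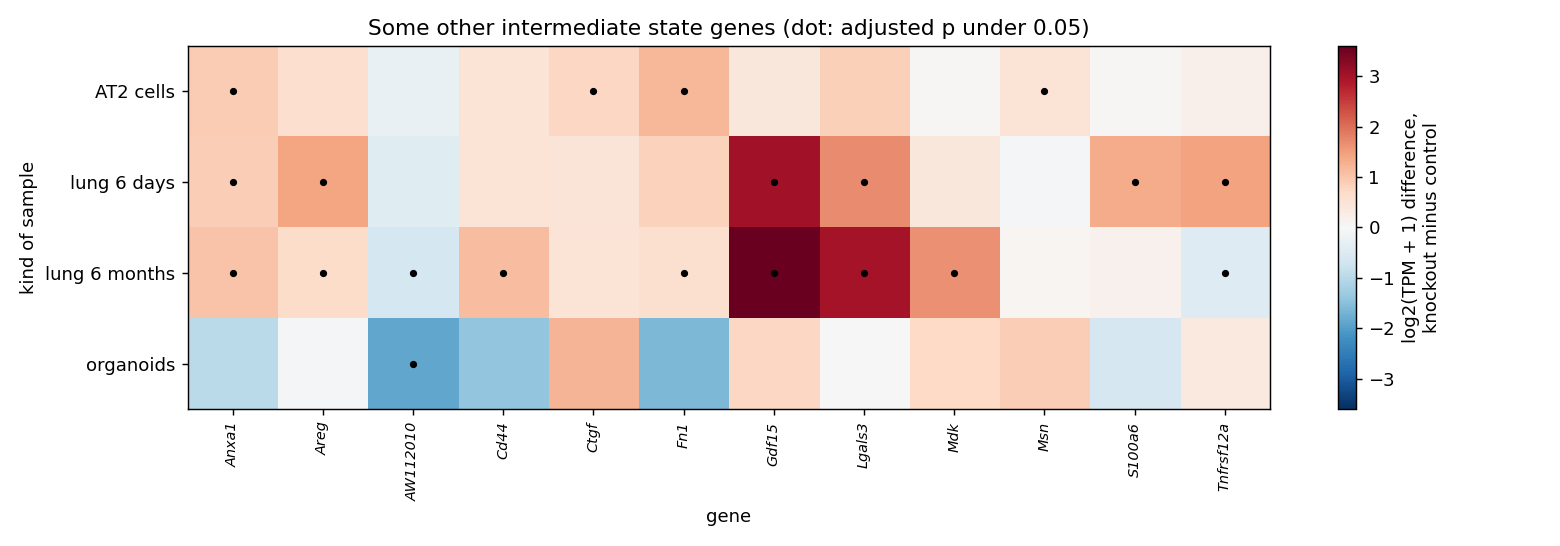
Differences between knockout and control (colour, log2(TPM + 1) scale) for the other intermediate state genes named just above (columns) in the 4 kinds of sample (rows), with dots where the limma adjusted p was under 0.05. Gdf15 and Lgals3 are the darkest cells at 6 months, and organoids hold 1 dot, for AW112010.

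Genes that varied most like Krt8 were found from log2(TPM + 1) over the 24 libraries after the mean of each table was subtracted, among 8608 genes outside the list of 10 with at least 5 TPM on average in each table. Libraries of a table share the genotype contrast and their scaling, so these correlations are a description. Tnfrsf12a (Pearson's r = 0.855), the EGF receptor ligand Hbegf (0.819), the mitochondrial kinase Pdk3 (0.80), the actin-binding twinfilin gene Twf1 (0.799) and the uridine-cytidine kinase Uck2 (0.785) were the closest. Of the 9 other intermediate state genes followed here, Krt18 (0.900) was closer than any of these, and Krt7 (0.785) and Krt19 (0.768) were next. Sfn had 0.651, Cldn4 0.567, Plaur 0.498 and Epha2 0.493. Sox4 (0.053) and Nupr1 (0.015) hardly varied with Krt8, with 55.1% and 60.4% of the compared genes closer to it. Tnfrsf12a and Hbegf, the closest of the compared genes, are also in the list of other intermediate state genes.

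The promoters of Cldn4 and Plaur are shown because these were the 2 genes that rose in AT2 cells and the only ones of the set with an AP-1 element in the window. RefSeq promoter windows (GRCm38.p6, 250 bases before to 50 after the gene start) were found for 9 of the 10 genes and not for Krt19. AP-1 is the dimer of FOS and JUN family proteins. Its element TGACTCA, searched on both strands, was in 2 of the 9 windows and in 5.2% of 32851 windows of that length. The Cldn4 window starts the element 240 and 158 bases before the gene start, and the Plaur window 69 bases before it (positions −240, −158 and −69). Capitals mark the element, and each window is written 5′ to 3′ on the strand of the gene.
Cldn4, chr5:134946885-134947184, minus strand: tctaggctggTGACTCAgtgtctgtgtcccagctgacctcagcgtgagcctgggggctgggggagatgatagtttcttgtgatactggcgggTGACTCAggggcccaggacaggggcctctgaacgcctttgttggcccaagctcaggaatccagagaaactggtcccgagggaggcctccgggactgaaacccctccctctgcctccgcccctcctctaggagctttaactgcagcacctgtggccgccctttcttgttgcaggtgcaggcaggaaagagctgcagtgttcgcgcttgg
Plaur, chr7:24462233-24462532, plus strand: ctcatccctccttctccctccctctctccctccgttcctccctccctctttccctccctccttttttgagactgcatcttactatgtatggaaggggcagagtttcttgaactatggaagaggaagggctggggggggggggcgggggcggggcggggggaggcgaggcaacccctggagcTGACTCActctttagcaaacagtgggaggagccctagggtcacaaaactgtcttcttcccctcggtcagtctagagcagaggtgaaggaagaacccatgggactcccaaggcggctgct
The motif was picked with the AT2 result and its matches already seen, from 8 motifs searched. None of the 8 motifs contains another. The GC box GGGCGG was in 5 of the 9 windows and 35.7% of all. The cyclic AMP element TGACGTCA was in 1 (Epha2, 1.79% of all), the E-box CACGTG in 1 (Nupr1, 7.15%), CATTCC in 2 (14.7%), GCCNNNGGC in 2 (16.6%), CCAAT in 2 (37.4%) and TATAAA in 1 (Krt8, 13.6%). These matches describe letters in a window and say nothing of binding.

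The labelled cell types were checked against their markers. The sum of 11 AT2 markers was 249978 to 266760 TPM in control and 162507 to 237175 TPM in knockout AT2 cells, and 16066 and 50345 TPM in control and 78800 and 85699 TPM in knockout organoids. Sftpc alone averaged 146836 TPM in control AT2 cells, so the sum does not stand for all 11 markers. Of the 11, 0 passed by limma in AT2 cells, where 3 differences were positive. In organoids 0 passed as well, and 9 differences were positive. There 2 were higher and 1 lower at an unadjusted p under 0.05. Between 11814 and 14175 genes reached 1 TPM in each of the 24 libraries. Replicates of lungs and organoids were separate mice, and those of AT2 cells separate pools, as the labels describe them.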

How the data were processed

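Libraries were poly(A)-selected TruSeq and not strand-specific, per the labels' protocols. The authors deposited TPM in 4 tables, 1 per kind of sample, and the submitters' processing notes name GRCm38. Aligner, quantification and gene models were not given in the sources used here. Of 24972 entries, 2 that repeated a symbol were left out. Each table was fitted separately with limma 3.58.1 (R 4.3.3) to log2(TPM + 1), with genotype as sole term and a variance trend, two-sided, and p-values were adjusted by Benjamini-Hochberg over the genes tested. Genes were tested if 1 TPM was reached in as many libraries as the smaller group holds. Differences between effects took the moderated SE of each table with Welch-Satterthwaite degrees of freedom. The fits were also run on simulated data with independent normal noise for each gene. That simulation held no outlying library and no scaling shift, so it does not cover how the counts depend on these. Groups came from sample titles. As alternatives, each library was left out in turn, the pseudocount was set to 0.1, the filter to 5 TPM or none, values were scaled by median ratios or quantiles, and the trend, library weights, a replicate block and a shared spread were varied. Named genes were the 10 members, up to 4 other intermediate state genes with the smallest adjusted p among those passing in each table, the 5 genes most like Krt8, and markers given beside a member. Anxa1, Areg and the keratins that fell were named after their values were seen. Some genes that the rule selects are not reported here. The members and lists were chosen with earlier results of these data known.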

Additional observations from a re-analysis of the deposited data

Results flagged for a closer look

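Among lungs at 6 months, where groups of 4 allow a check for a library far from the others, 2 of 20 sets of values held one, where chance gives about 1 in 20. Sfn was at 16.0 TPM in control 2, below the other controls, and Cldn4 at 7.64 TPM in knockout 2, above the other knockouts.

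The knockout effect differed between kinds of sample for 4 of the 10 genes, by the test of the difference. Between lungs at 6 months and 6 days it was lower for Krt7 by −1.53, for Krt19 by −0.93 and for Sfn by −1.67 on the log2 scale. Between organoids and AT2 cells it was −2.01 for Sfn and −2.11 for Nupr1. Between lungs at 6 days and AT2 cells it was 1.54 for Sfn. Of all genes, 0.353% passed as lower in the first contrast, 6.08% as lower in the second and 0.357% as higher in the third. Each of these calls on the 10 genes ended in at least 1 fit that left out a single library.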

How the results depend on the processing

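Of 1190 values of the 10 genes under the alternatives, 1031 kept their direction and their side of the threshold, 37 that passed under neither setting changed sign, 46 no longer passed, 76 newly passed, and 0 that passed under either setting changed sign. Where a count moved, the cause was not tested unless named. In AT2 cells 950 genes passed, with 370 without a filter (more genes tested) and 613 with quantile normalization, and each of these and median-ratio scaling left 1 of the 10 genes higher in place of 2. In lungs at 6 days 983 genes passed, with 1785 after median-ratio scaling, 1886 after quantile normalization and 8395 with library weights. The members higher there were 2, with 1 without a filter, 7 with either scaling and 8 with weights, which also gave 1 lower. At 6 months the 2 lower members became 5 with quantile normalization and 4 with weights. In organoids 75 genes passed, with 0 without a filter, 47 with quantile normalization, 183 without a variance trend and 659 with weights, which gave 2 members lower. For the effect at 6 months minus 6 days, 3 members were lower, with 1 without a filter, 5 with either scaling or a shared spread and 7 with weights, and 379 genes passed, with 3997 with weights and 610 with a shared spread. For organoids minus AT2 cells, 2 members were lower, with 1 without a filter or with a shared spread, which raised the genes from 1055 to 1604. For lungs at 6 days minus AT2 cells, 125 genes passed, with 79 at a pseudocount of 0.1 or a shared spread, 367 without a filter, 62 at 5 TPM, 214 with quantile normalization and 2516 with weights. The 1 member higher there became 5 with weights and 0 with a shared spread. A replicate block gave 4 members lower at 6 months, and in organoids 399 genes and 2 members lower (Sfn and Nupr1). Same-numbered libraries correlated from −0.17 to 0.22 in their deviations. At 6 months every control was closest to the knockout of its own number (0.08 to 0.22), a hint from the data and not from the design. The closest control of each knockout was not read. Leaving out 1 library gave these ranges. AT2 cells had 187 (without control 2) to 1214 genes (without knockout 2), and 0 to 2 members higher. Lungs at 6 days had 92 (without control 1) to 2049 genes (without knockout 3), and 0 to 7 members higher. Lungs at 6 months had 3618 to 3897 genes, 1 to 2 members higher and 2 to 4 lower. Organoids had 0 (without knockout 1) to 6967 genes (without control 1), 0 to 3 members higher and 0 to 4 lower, the lone library left in a genotype being assumed to vary like the other group. The effect differences had 107 to 889 genes and 0 to 6 members lower (6 months minus 6 days), 31 to 4877 genes, 0 to 1 members higher and 0 to 5 lower (organoids minus AT2 cells), and 6 to 321 genes and 0 to 1 members higher (6 days minus AT2 cells).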
